A study of Homo sapiens with 5 samples.

Results

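The CD1 genes CD1D, CD1A, CD1C, CD1B and CD1E lie side by side on human chromosome 1, and the peaks over this cluster were described in MOLT-4, a long-established line of human T cell acute lymphoblastic leukaemia. The assay was CUT&RUN, in which a nuclease held by an antibody cuts chromatin around the antibody's target and the freed DNA is sequenced. The groups compared were a library for the target labelled SMA4, a library for RUNX1 and a library for H3K4me3, each from MOLT-4 cells with no treatment named beyond the assay. The SMA4 label is not spelled out in the labels and is used here as given, with the antibody listed as 49360 of Cell Signalling Technology. There was 1 library per antibody, so no value has a replicate check and no test was made. The 2 IgG controls were not analysed here. The members are all peaks touching chromosome 1 from 158120000 to 158400000 (hg19), a window of 280 kb chosen with the peaks of these same lists in view, so its peak numbers and overlaps are a description. The window held 55 of the 51455 peaks in the deposited lists, made up of 8 of 1479 SMA4 peaks, 38 of 36777 RUNX1 peaks and 9 of 13199 H3K4me3 peaks.

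CD1 proteins resemble the heavy chains of major histocompatibility class I molecules, pair with beta-2-microglobulin and present lipids in place of peptides to T cells. CD1a, CD1b and CD1c are displayed by cortical thymocytes and dendritic cells, and CD1a is used as a marker of the cortical stage of thymocytes and of T cell leukaemias arrested there. CD1d presents lipids to natural killer T cells, and CD1e stays inside the cell, where it assists lipid loading. RUNX1 is a runt-domain transcription factor needed in early T cell development, and H3K4me3 is a histone modification found at promoters that are active or poised. The lists hold no expression values, so whether MOLT-4 cells transcribe the CD1 genes was not measured. No hg19 annotation was used, and gene positions are known here for CD1B, which starts near 158.301 Mb, and CD1E, which starts at 158.323 Mb, both to the nearest kb. CD1D, CD1A and CD1C lie in that order to the left of the CD1B start, and peaks there were not assigned to single genes. CD1B is transcribed leftward, against the direction of its neighbours in the family, so the sequence to the right of its start is its upstream side.

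Promoter sequence was matched for 4 of the 5 genes, with 6 promoters in all (RefSeq, GRCh38.p14), and CD1B had no entry. The 250 bases before each start were searched on both strands. The letters for runt-domain factors were TGTGGT, with the related form TGCGGT. Motifs of GATA factors were searched by AGATAA. E-boxes were searched in the form CAGCTG and also in the form CACCTG. ETS factors were searched by ACTTCC. The CD1E promoter is shown because peaks described below lie at the rounded hg19 start of that gene. Whether the printed promoter belongs to that start was not determined. In addition, 1 of the 2 CD1A promoters is shown because it is the other CD1 promoter with a runt-domain match. Capitals mark TGTGGT or, where it lies on the opposite strand, its reverse complement ACCACA. The sequences are from chr1:158353644-158353893 for CD1E and chr1:158248086-158248335 for CD1A, both on the plus strand of GRCh38.p14, and these positions cannot be set against the hg19 peaks.
CD1E: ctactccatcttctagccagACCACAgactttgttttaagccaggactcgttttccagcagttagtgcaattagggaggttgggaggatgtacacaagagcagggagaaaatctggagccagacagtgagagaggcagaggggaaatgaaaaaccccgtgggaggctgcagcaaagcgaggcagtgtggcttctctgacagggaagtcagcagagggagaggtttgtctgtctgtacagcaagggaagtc
CD1A: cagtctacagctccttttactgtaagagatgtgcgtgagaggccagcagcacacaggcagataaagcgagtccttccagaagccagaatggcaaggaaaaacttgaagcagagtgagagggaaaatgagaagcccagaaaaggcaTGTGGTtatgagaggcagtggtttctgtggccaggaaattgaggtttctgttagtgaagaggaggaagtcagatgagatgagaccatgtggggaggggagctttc

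In the CD1E promoter the runt-domain match began 230 bases before the start, and ACTTCC matches on the opposite strand began 49 and 7 bases before it. In the CD1A promoter shown, TGTGGT began 105 bases before the start, beside an AGATAA match at 192 and an ACTTCC match at 42 bases. The CD1C promoter held no runt-domain letters, but had 1 match of the GATA letters, 1 of each E-box and 1 of the ETS letters. Both CD1D promoters and the other CD1A promoter held none of the letters searched. No match overlapped another. Of all 35116 promoters in the table, 11% held TGTGGT, 5.84% TGCGGT, 9.17% AGATAA, 14.0% CAGCTG, 17.5% CACCTG and 19.5% ACTTCC within the same 250 bases. These are matches of letters, not sites of binding, and the lack of a match says nothing about RUNX1 at these genes.

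The peaks over the CD1 genes fell into 8 groups when neighbours of any list were joined by the standard setting of ROSE, a tool that groups enhancers, with up to 9.71 kb between neighbours inside a group and 16.3 to 40.1 kb between groups. RUNX1 peaks were found in all 8 groups, H3K4me3 in groups 1, 2, 5 and 6, and SMA4 in groups 1, 5 and 7. Group 5 lay at the CD1B start and held peaks of the 3 lists, as did group 1, group 6 lay at the CD1E start with RUNX1 and H3K4me3, and group 7 lay to the right of CD1E with RUNX1 and SMA4. Peaks were dense within each list, with 28.6 SMA4 peaks per Mb in the window against 0.678 on chromosome 1, 136.0 RUNX1 peaks per Mb against 14.8, and 32.1 H3K4me3 peaks per Mb against 5.33. RUNX1 peaks covered 35.2 kb of the window (12.6% of its bases, against 1.17% of chromosome 1), H3K4me3 peaks 11.8 kb (4.22%, against 0.561%) and SMA4 peaks 2.55 kb (0.911%, against 0.0185%). The lists differ in antibody, and the SMA4 list also in pipeline, so densities are set side by side within a list and not between lists.

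**Figure D1:**
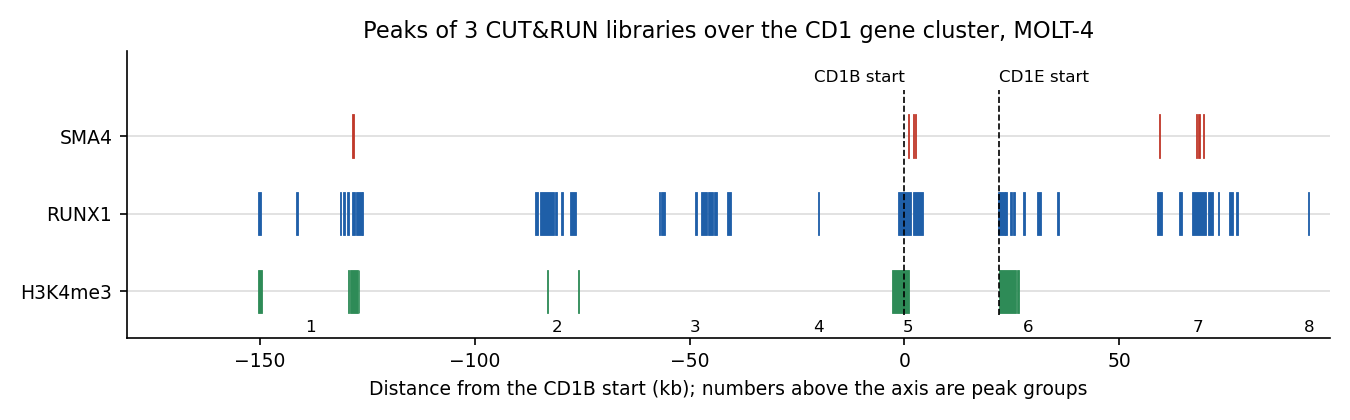
Positions of all 55 peaks in the CD1 window, as distance in kb from the CD1B start (hg19, position known to the nearest kb), with a row for each list, bars drawn to scale, dashed lines at the CD1B and CD1E starts, and the numbers 1 to 8 marking the peak groups. The 8 SMA4 peaks sit in groups 1, 5 and 7. The 38 RUNX1 peaks, which make up most of the peaks joined into groups, occur in all 8 groups.

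Among 10819 windows of the same length tiled over chromosomes 1 to 22 and X, few held as many peaks as the CD1 window. At least 8 SMA4 peaks were found in 5 windows (0.0462%), the CD1 window included, and 90.1% of windows held none. At least 38 RUNX1 peaks were found in 6 windows (0.0555%), of which 4 held more, with 49 in the richest. At least 9 H3K4me3 peaks were found in 178 windows (1.65%). Since the window was chosen from these lists, these ranks describe it and do not test it. The 3 other windows richest in SMA4 held 14, 10 and 9 SMA4 peaks, but 19, 11 and 5 RUNX1 peaks. They lay on chromosome 3 from 35560128 to 35840128, on chromosome 3 from 151760543 to 152040543 and on chromosome 1 from 192280122 to 192560122. In them, 10 of 14, 6 of 10 and 4 of 9 SMA4 peaks overlapped RUNX1, where 65.9% of the whole SMA4 list did. These shares lie on both sides of that of the whole list.

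SMA4 peaks in the CD1 window all lay on RUNX1, and 2 of them also met H3K4me3. A peak was counted as overlapping when it shared at least 1 bp with the other. All 8 SMA4 peaks overlapped RUNX1 (100%, 95% Wilson interval 67.6 to 100%), where 65.9% of the whole SMA4 list did. With H3K4me3, 2 of 8 SMA4 peaks overlapped (25%, interval 7.15 to 59.1%), close to the 21.8% of the whole list. Of the 38 RUNX1 peaks, 5 carried SMA4 (13.2%, interval 5.75 to 27.3%), against 2.56% of the whole RUNX1 list. H3K4me3 was met by 10 of the 38 RUNX1 peaks (26.3%, interval 15.0 to 42.0%), against 32.2% of the whole list. Of the 9 H3K4me3 peaks, 2 carried SMA4 (22.2%, interval 6.32 to 54.7%), against 2.39% of the whole H3K4me3 list, and 7 carried RUNX1 (77.8%, interval 45.3 to 93.7%), against 88.1%. With overlap counted at the midpoint of the H3K4me3 peak, 0.0% of those in the CD1 window met SMA4, against 0.652% of the whole list. The CD1 window then no longer stood above the list, but 9 peaks are too few to show a direction at so small a share. With peaks within 1 kb counted as overlapping, H3K4me3 at RUNX1 was 100% in the CD1 window against 93.7% in the whole list. RUNX1 at H3K4me3 was then 36.8% against 35.1%. Both of those orders turned round, by small margins in few peaks. The intervals describe counting error alone and treat neighbouring peaks as independent, which they are not. They are no test of a difference in a window chosen from these lists. RUNX1 peaks covered 12.6% of the bases of the window, against 0.962% over chromosomes 1 to 22 and X. SMA4 peaks were dense in the window as well, and the part of peak density in these shares was not tested.

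**Figure D2:**
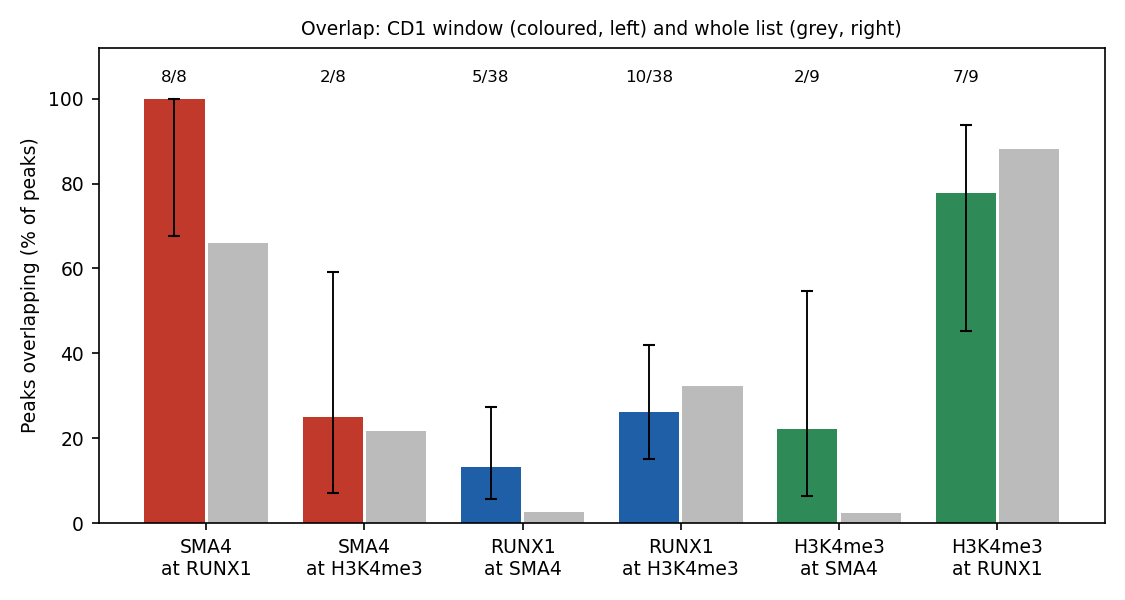
Percent of peaks of the first-named list that overlap the second-named list by at least 1 bp, with coloured bars for the CD1 window (error bars are 95% Wilson intervals, counts above) and grey bars for the whole list on chromosomes 1 to 22 and X. The coloured bars stand above the grey bars for SMA4 at RUNX1 (100% against 65.9%) and RUNX1 at SMA4 (13.2% against 2.56%). H3K4me3 at SMA4 (22.2% against 2.39%) also stands above, but is 0.0% against 0.652% when overlap is counted at the H3K4me3 midpoint. The window was chosen from these lists, and the part of its peak density in these shares was not tested.

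At CD1B, which encodes a CD1 protein with a deep lipid-binding groove, the 3 lists met. The H3K4me3 peak ran from 158298127 to 158302018 (3892 bp), reaching 2873 bp to the left of 158.301 Mb, into the gene, and 1018 bp to the right. It was among the widest of its list, with 0.599% of H3K4me3 peaks at least as wide. A RUNX1 peak of 3026 bp from 158299451 to 158302476 covered the start and took in 66.0% of the bases of the H3K4me3 peak. A second RUNX1 peak of 2428 bp lay from 158302930 to 158305357, beyond the right edge of the mark. These RUNX1 peaks were also wide for their list, with 0.735% and 1.92% of RUNX1 peaks at least as wide.

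The SMA4 peaks at CD1B all lay on its upstream side. The first ran from 158301858 to 158302150 (293 bp), starting 858 bp from 158.301 Mb, inside the first RUNX1 peak and across the right edge of H3K4me3, with which it shared 161 bp. The second, from 158303013 to 158303154, was 142 bp wide, close to the minimum of 141 bp in its list, and the third ran from 158303470 to 158303787 (318 bp). Both lay wholly inside the second RUNX1 peak, with 994 and 1451 bp between them and the H3K4me3 peak. From left to right, this locus thus began with H3K4me3 without RUNX1, then H3K4me3 with RUNX1 and a stretch where the 3 lists overlapped. Beyond the mark, SMA4 filled only parts of the RUNX1 peaks, which were separated by a stretch without any peak. Within the second RUNX1 peak, the SMA4 peaks took up 5.85% and 13.1% of its bases. To the right of 158303787, that RUNX1 peak ran on to 158305357 without SMA4 or H3K4me3.

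At CD1E, whose product assists lipid loading inside the cell, a comparably wide H3K4me3 peak was found without an SMA4 peak. The mark ran from 158323028 to 158326949 (3922 bp, with 0.554% of the list at least as wide), starting within the rounding of the CD1E start and extending rightward into the gene. RUNX1 covered 61.7% of its bases, but in 4 separate peaks of 1460, 371, 487 and 291 bp, where the H3K4me3 peak at CD1B met 1 RUNX1 peak. The first of these, from 158322837 to 158324296, spanned 158.323 Mb, with its left edge 163 bp before it. That is within the rounding, so whether this RUNX1 peak covers the CD1E start itself is not known. A further H3K4me3 peak of 285 bp from 158327289 met no RUNX1 peak. The other 3 RUNX1 peaks of group 6 lay farther right, at 273, 959 and 475 bp in width, the last ending at 158336883. The nearest SMA4 peak was the third peak at CD1B, 19.2 kb from the H3K4me3 peak. With 1 library and a list of 1479 SMA4 peaks, the absence of a called peak does not show that the target is absent from CD1E.

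Group 7, to the right of CD1E, held RUNX1 and SMA4 with no H3K4me3 peak. It spanned 18.9 kb from 158359781 to 158378684 and had 7 RUNX1 peaks, which covered 8.3 kb, the most of the 8 groups. In the gene table the protein-coding gene listed after CD1E is OR10T2, of the olfactory receptor family. That table lists CD1B before CD1C, unlike the order given above, so a listed neighbour need not be the adjacent gene. Whether the group overlaps OR10T2 was not determined in hg19. The widest RUNX1 peak of the whole CD1 window lay here, from 158367891 to 158371273 (3383 bp, with 0.474% of the list at least as wide). It contained 3 SMA4 peaks, of 247 bp from 158368814, 582 bp from 158369306 and 352 bp from 158370426. The middle one was the widest SMA4 peak of the window, with 3.86% of its list at least as wide, and its centre was 14 bp from the centre of the RUNX1 peak. The fourth SMA4 peak, from 158360194 to 158360502 (309 bp), was enclosed by a RUNX1 peak of 1287 bp that began at 158359781, its centre 76 bp from the centre of that peak. The nearest H3K4me3 peak was 32.6 kb from this SMA4 peak and 41.2 to 42.9 kb from the others. The other 5 RUNX1 peaks of the group were 334 to 1230 bp wide and carried no SMA4.

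**Figure D3:**
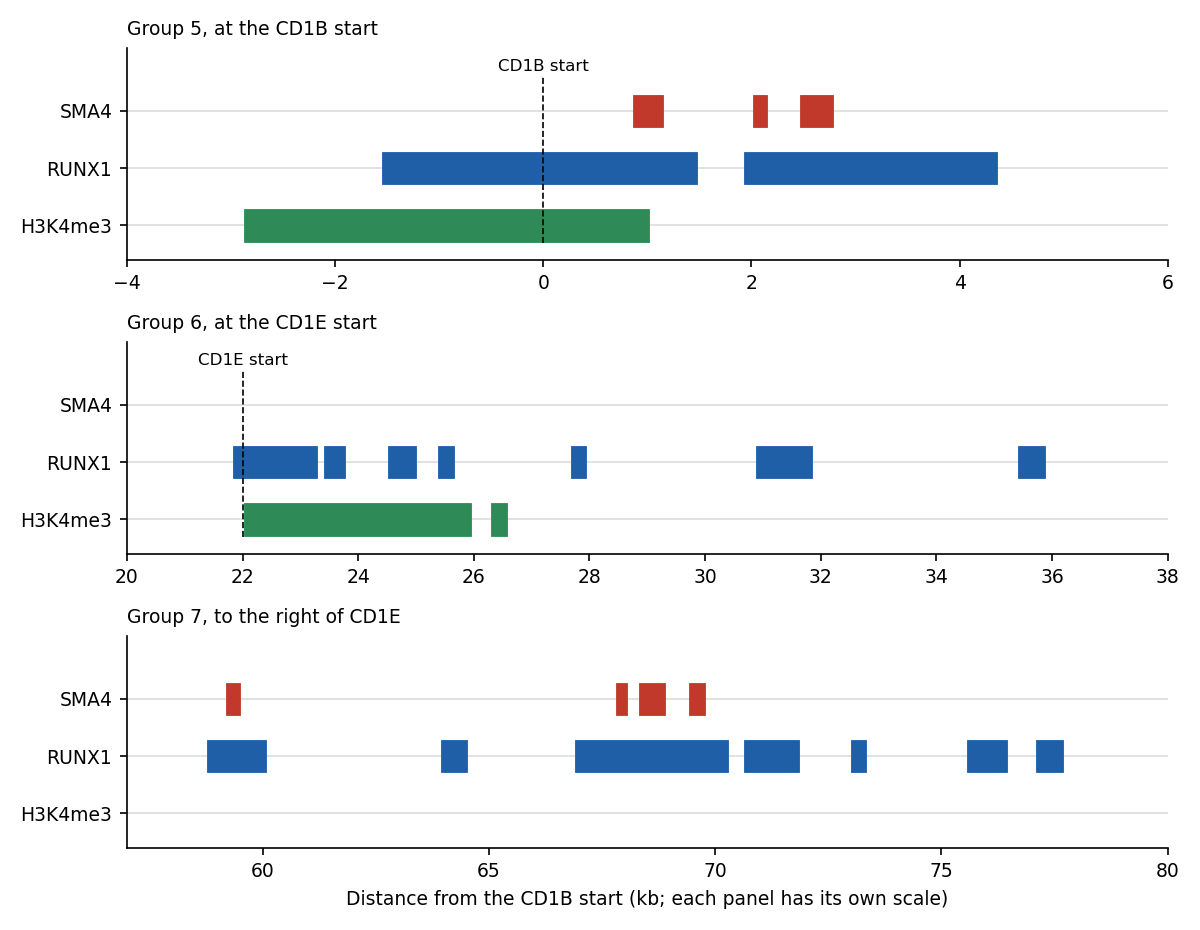
Peaks of groups 5, 6 and 7 as distance in kb from the CD1B start, with a row for each list, bars to scale within a panel and dashed lines at the CD1B and CD1E starts. SMA4 peaks sit at the right of the CD1B mark and inside RUNX1 peaks of group 7, and group 6 shows H3K4me3 and RUNX1 with an empty SMA4 row.

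To the left of CD1B lie CD1D, CD1A and CD1C, with groups 1 to 4. Group 1, from 158150444 to 158174986, held 4 H3K4me3 peaks, 8 RUNX1 peaks and 1 SMA4 peak. Its first pair was an H3K4me3 peak of 959 bp from 158150446 and a RUNX1 peak of 854 bp from 158150444. Farther right, H3K4me3 peaks of 196, 1779 and 179 bp followed each other between 158171547 and 158174128, and the last was at the minimum width of its list. The SMA4 peak, from 158172477 to 158172785 (309 bp), lay wholly inside the H3K4me3 peak of 1779 bp and inside a RUNX1 peak of 714 bp from 158172390. This RUNX1 peak was the narrowest of the 5 with SMA4. The H3K4me3 peak of 196 bp lay inside a RUNX1 peak of 442 bp from 158171303. The widest RUNX1 peak of the group, from 158173227 (1424 bp), overlapped 2 H3K4me3 peaks and no SMA4 peak.

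Group 2, from 158215064 to 158225141, paired a wide RUNX1 peak with little H3K4me3. Its RUNX1 peak from 158216205 to 158219314 (3110 bp) was the second widest of the window, with 0.664% of the list at least as wide, and it enclosed an H3K4me3 peak of 400 bp. The other H3K4me3 peak, of 209 bp from 158224933, lay 460 bp beyond the last RUNX1 peak of the group, which ran from 158223189 to 158224472 (1284 bp). Group 3, from 158243789 to 158260693, consisted of 7 RUNX1 peaks covering 5.96 kb, with 3 of them, of 1358, 1243 and 797 bp, following each other between 158253708 and 158257389. It held no H3K4me3 and no SMA4 peak. Groups 4 and 8 were single RUNX1 peaks of 221 and 329 bp, and 221 bp is the minimum width of that list. The wide RUNX1 peak of group 2 thus lacked SMA4, with 43.4 kb to the nearest SMA4 peak, whereas the peaks of 3383, 3026 and 2428 bp in groups 7 and 5 carried it.

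Over the CD1 genes, SMA4 peaks were mostly wider than the median of their list, and the median widths of RUNX1 and H3K4me3 peaks were below those of theirs. SMA4 peaks had a median of 309.0 bp, against 219.0 bp in the whole list, and 7 of 8 were wider than that median. RUNX1 peaks had a median of 603.5 bp, against 645.0 bp, with 11 of 38 above the upper quartile of the list (1024 bp) and 11 below its lower quartile (380 bp). H3K4me3 peaks had a median of 400.0 bp, against 938.0 bp, with 3 of 9 above the upper quartile (1524 bp) and 4 below the lower quartile (355 bp). The 5 RUNX1 peaks with SMA4 had widths from 714 to 3383 bp and a median of 2428 bp, and the 33 without SMA4 had widths from 221 to 3110 bp and a median of 532 bp. The 10 RUNX1 peaks with H3K4me3 had a median of 784 bp, and the 28 without had 593 bp. The same medians were not computed for the whole RUNX1 list, so these differences cannot be called particular to the CD1 window. A wide peak meets other peaks more readily, and the part of this in the overlaps was not tested.

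**Figure D4:**
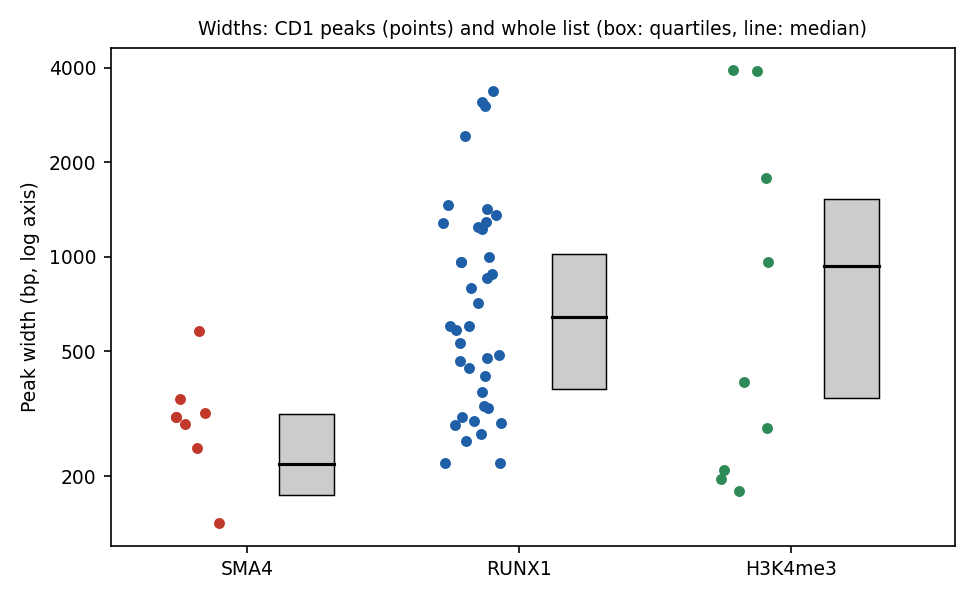
Width in bp (log axis) of each peak in the CD1 window, as coloured points with random sideways spread, beside a grey box for the whole list (box from lower to upper quartile, line at the median). The 2 highest H3K4me3 points, at 3922 and 3892 bp, are the CD1E and CD1B peaks, and the other H3K4me3 points lie between 179 and 1779 bp.

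At the edges of the window, the first RUNX1 peak inside lay 30.4 kb from the left edge, and the nearest one outside, of 351 bp, lay 0.158 kb beyond that edge. On the right, the last RUNX1 peak inside, of 329 bp, lay 4.72 kb from the edge, and the next outside, of 346 bp, lay 16.3 kb beyond it. The nearest SMA4 peaks outside were 490.0 kb beyond the left edge (666 bp wide) and 59.5 kb beyond the right (158 bp). For the SMA4 peaks inside, the distances to the edges were 52.5 kb on the left (309 bp wide) and 29.2 kb on the right (352 bp). H3K4me3 peaks of 959 and 285 bp lay 30.4 and 72.4 kb inside the edges, and the nearest outside, of 184 and 179 bp, lay 156.0 kb beyond the left edge and 410.0 kb beyond the right.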

How the data were processed

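CUT&RUN peak lists of 3 MOLT-4 libraries were used. The authors deposited chromosome, start, end and a running name per peak (positions in bp, no height, score or read count), so depth is unknown. Per the file headers, H3K4me3 and RUNX1 peaks came from MACS2 (a batch 2 folder) and SMA4 peaks from cutruntools at q below 0.01 (a batch 3 folder). Antibody, batch and pipeline therefore cannot be told apart between SMA4 and the other lists. MACS2, SEACR and hg19 are named in the submitters' processing notes. For the aligner and the control, the sources used here give no name. Peak names carry a tag for unique reads, and the effect of mapping on paralogous CD1 sequence was not tested.

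Starts were made 1-based. Whole-list values use chromosomes 1 to 22 and X, with the highest peak end as chromosome length. Overlaps, widths, joined groups and window ranks were computed with Python 3.11.15, NumPy 2.4.6, pandas 2.3.3 and SciPy 1.17.1. The overlap step was tested on simulated peaks placed inside RUNX1 peaks or well away from them. Partial and near overlaps were not tried in that test. The text names the CD1 genes and their neighbours, every H3K4me3 and SMA4 peak in the window, RUNX1 peaks that overlap either or are among the 5 widest, and the 3 other windows richest in SMA4. Other RUNX1 peaks are given where a group is described, chosen after their values were seen. The window, its genes and all rules were chosen with earlier results of these data known. Protein sequences planned for comparison were not used here.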

Additional observations from a re-analysis of the deposited data

How the results depend on the processing

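For 21 values of the CD1 window (peak numbers, overlap shares, relative densities, median widths, joined regions and window ranks), 67 alternatives were computed. In all, 61 values stayed within the stated limits (1.5 times the value, or the Wilson interval of a share) and 6 did not. The intervals of shares from 8 or 9 peaks are wide, such as 7.15 to 59.1% for SMA4 peaks at H3K4me3. Some alternatives, such as merging touching peaks, left the counts and median widths as they were. The 61 values are therefore no measure of how firm the results are. Counting peaks within 1 kb as overlapping put 100% of the H3K4me3 peaks at RUNX1, against 77.8%, and turned the order of the CD1 window and the whole list (93.7%). For RUNX1 peaks at H3K4me3 the order turned as well (36.8% against 35.1%), although this share stayed within its limits and is not among the 6. Overlap at the H3K4me3 midpoint put 0.0% of them at SMA4, against 22.2%, under the 0.652% of the whole list, since both SMA4 peaks lie off the centre of the mark. Without peaks at the minimum width, which leaves 8 peaks, the median H3K4me3 width was 679.5 bp, against 400.0 bp. Joining at gaps of up to 25 kb gave 3 H3K4me3 and 2 RUNX1 regions, against 5 and 8, because a larger gap joins more peaks. Ranked by bases in peaks, 0.702% of windows had at least as much H3K4me3, against 1.65% by number. All 8 SMA4 peaks met RUNX1 under each of the overlap alternatives computed. The joining of the 3 lists together was added after the data had been seen. No paired analysis was possible because each antibody had 1 library. A peak list without read depth or IgG peaks limits every value to the presence and width of called peaks.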
